A study of Arabidopsis thaliana with 6 samples.

Results

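The XTH family of Arabidopsis thaliana, the xyloglucan endotransglucosylases and hydrolases numbered XTH1 to XTH33, was followed in seedlings of the wild-type accession Col0 and of the cbe1 mutant. Its members were the 33 genes with these names, taken by their locus identifiers among the 33557 genes of the authors' deposited table. Poly(A) RNA was taken from whole seedlings aged 7 days, raised on MS plates holding 1% sucrose with a day of 16 hours and a night of 8 hours, in 3 libraries per genotype. The labels number these libraries without saying whether they came from separate cultures, so the spread between them may be technical, and they give neither the kind of cbe1 mutation nor the hour of harvest. The gene behind the mutant, CBE1 (Conserved Binding of eIF4E 1), encodes a partner of eIF4E, the translation factor that holds the mRNA cap, and the question is which transcript levels differ without normal CBE1.

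The deposited table gives 1 FPKM value per gene and genotype, that is, a fragment count scaled to both gene length and library size, so levels of different genes can be set side by side. It holds no value per library, so neither the spread between replicates nor the depth is known, and each level below is a group value without an error. Errors are therefore given for the log2 ratio of cbe1 over Col0 alone, as a 95% interval from the ratio and the test statistic of the authors' deposited table. A gene was called when the authors had tested it and its deposited q-value was below 0.05. The CBE1 transcript (AT4G01290), matched to the mutant's name from knowledge of the study, had 13.8 FPKM in Col0 against 4.48 in cbe1, a log2 ratio of −1.62 (95% interval −2.02 to −1.22; q = 1.41e-12 in the authors' deposited table) and 3.07-fold lower.

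Xyloglucan is the main hemicellulose of the growing walls of this plant, a glucan chain with short side branches that coats and tethers cellulose. XTH enzymes cut the xyloglucan backbone and rejoin the cut end to another chain, or to water, and so loosen, strengthen or remodel the wall while a cell expands. Sequence comparisons divide the family into groups 1, 2 and 3, with XTH1 to XTH11, XTH12 to XTH26 and XTH27 to XTH33 as their members. XTH31 and XTH32 form a branch of group 3 that is known for hydrolase activity. Many group 2 genes, such as XTH17 to XTH21 and XTH26, are known from roots, and XTH22 is the touch-inducible gene TCH4.

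The family is held together by the codons around its catalytic acids, and a shared codon pattern was found once, in frame, in 31 of the 33 coding sequences and not in XTH11 or XTH33. The stretch is shown for the called members and for 4 members of other behaviour, as 30 coding bases from the RefSeq annotation of TAIR10.1. Capitals mark the bases that differ from XTH7.
XTH7: cgagacgagcttgattttgagttcttagga
XTH6: AgagacgagctAgattttgagttcttGgga
XTH8: AgagacgagAtAgatttCgaAttTCtaggG
XTH31: cACgaTgagGtCgatAtCgagttTCtaggG
XTH32: cATgaTgagGtAgaCAtAgaAttTttGggG
XTH4: cATgacgagAtAgaCtttgagttcCtTgga
XTH9: cACAacgaATtCgattttgagttcttaggG
XTH22: TgGgacgagAtAgatttCgagttTttaggG
XTH24: TgGgaTgagAttgattttgagttcttGggT
XTH6 differed from XTH7 at 3 of these bases, fewer than any other member in which the stretch was found. XTH32 differed at 12, more than any other, and XTH31 at 10. Across whole coding sequences XTH6 and XTH7 were each other's nearest relatives, with 71.9% identical bases, and so were XTH31 and XTH32, with 64.7%. The called members thus comprised these 2 pairs and XTH8, which had no member closer than XTH5, at 59.1%.

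Of the 33 members, 29 were tested, and 5 of these were called lower in cbe1 and 0 higher by the Cuffdiff test in the authors' deposited table. XTH7, XTH31, XTH8, XTH32 and XTH6 were the lower ones. Among all 22303 tested genes 1.63% were called lower and 3.31% higher. At an unadjusted p below 0.05, which 4.2% of all tested genes met in the lower and 12.5% in the higher direction, 9 members lay lower and 1 higher, the last being XTH22. The median log2 ratio of the tested members was −0.14, while the median gene, taken over 18727 tested genes whose mean FPKM reached 1, lay at 0.17. With the statistic recentred on that median gene, 7 members were called lower and 0 higher, against 2.99% and 1.33% of all tested genes, and the 5 calls were kept with XTH4 and XTH15 added. Seedlings were homogenised whole, so fewer cells of a kind and less transcript per cell cannot be told apart.

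Direction depended on the scale. Relative to the median gene, 5 uncalled members moved from just above 0 to just below it (XTH11, XTH12, XTH17, XTH23 and XTH24). Divided by the FPKM total of nuclear protein-coding genes, all 29 tested members lay above 0, with 0 called lower and 27 higher, against 0.0897% and 88.9% of all tested genes. A single gene, AT2G01021, made up 85.9% of that total in Col0 and 52.5% in cbe1. With it left out of the total, the 5 lower calls were kept and 0 members were called higher, against 1.61% and 3.48% of all tested genes. XTH6 was kept there by a narrow margin, with an adjusted q of 0.0495. The same 5 were called, and 0 higher, among genes whose mean FPKM reached 1 (background 1.92% lower, 4.2% higher) and among nuclear genes alone on their locus (background 1.67% lower, 3.48% higher). At a q-value below 0.01 there were 2 lower calls, XTH7 and XTH31, and 0 higher (background 0.928% and 1.59%). No called member had a log2 ratio of 1 or more in size (background 0.655% lower, 1.08% higher).

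Levels spanned from 0.0548 FPKM for XTH1 to 399.9 FPKM for XTH7 in Col0. XTH7 alone made up 31.8% of the family's summed FPKM in Col0 and 23.7% in cbe1, and with XTH4 and XTH6 the share was 62.3% and 53.7%. The sum over all 33 genes was 1259 FPKM in Col0 against 922 in cbe1, a change of −26.8%, and without XTH7 it was 859 and 704 FPKM, a change of −18.1%. These sums have no test. XTH7, XTH4 and XTH6 kept ranks 1, 2 and 3 in both genotypes, while XTH31 and XTH9 exchanged ranks 4 and 5. Without values per library, neighbours in this order cannot be tested against each other.

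**Figure D1:**
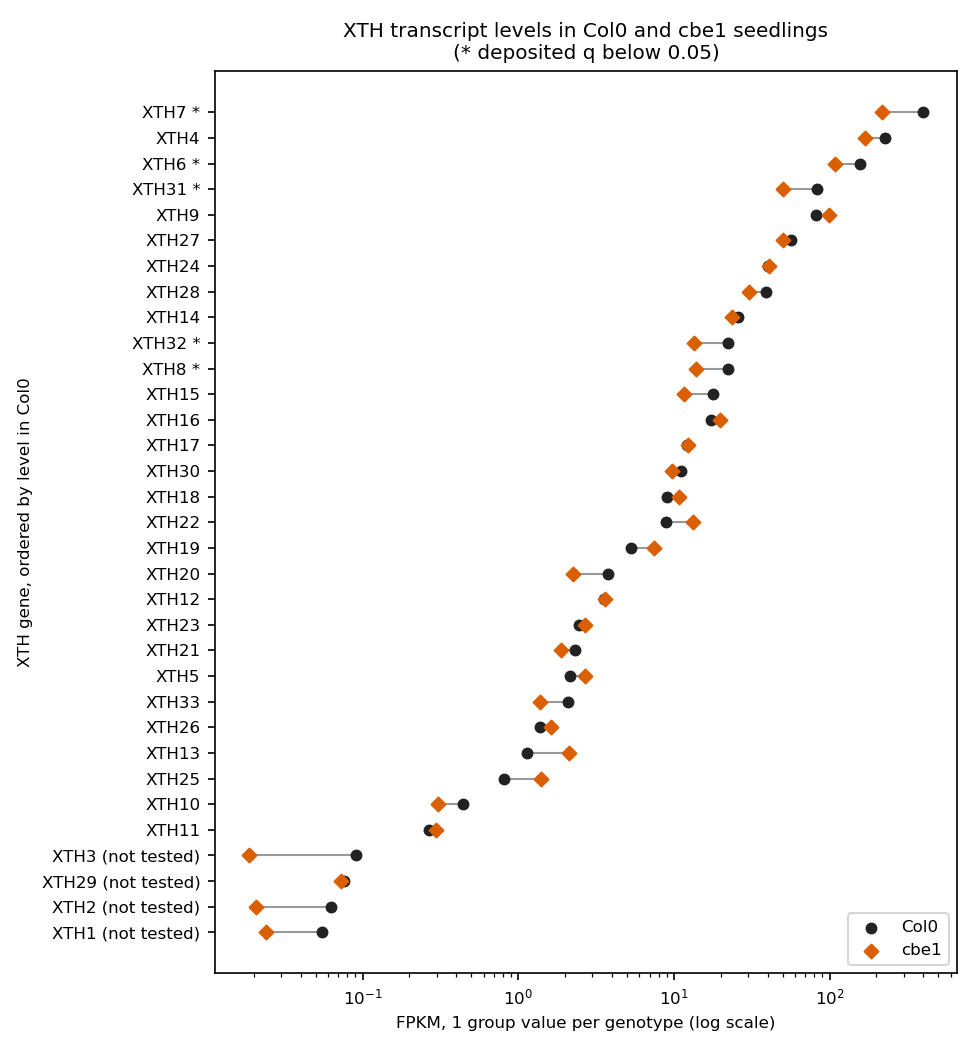
FPKM of the 33 XTH genes on a log axis, with 1 group value for Col0 (black circles) and 1 for cbe1 (orange diamonds), ordered by level in Col0; asterisks mark the deposited calls and there are no error bars. XTH7 leads in both genotypes, at 399.9 and 218 FPKM, and XTH1, XTH2, XTH3 and XTH29 lie below 0.1 FPKM in both.

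Group 1 held the most abundant members and 3 of the lower calls. These were 3 of its 8 tested members, beside 1.63% of all tested genes called lower. XTH7 (AT4G37800, chromosome 4, 17775474 to 17777397, TAIR10) had 399.9 FPKM in Col0 against 218 in cbe1. Its log2 ratio was −0.88 (95% interval −1.24 to −0.51; q = 2.62e-04 in the authors' deposited table), a 1.83-fold lower level, and in Col0 it lay above 98.9% of the tested nuclear genes. XTH6 (AT5G65730, chromosome 5, 26299032 to 26300478), its nearest relative, had 157.6 FPKM in Col0 against 108.4 in cbe1. The log2 ratio of XTH6 was −0.54 (−0.89 to −0.19; q = 0.0456 in the authors' deposited table), which is the call nearest to the threshold. XTH8 (AT1G11545, chromosome 1, 3878550 to 3880361) had 22.3 and 13.9 FPKM, a log2 ratio of −0.68 (−1.08 to −0.29; q = 0.0220 in the authors' deposited table).

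The other tested members of group 1 were not called and lay on both sides of 0. XTH4, an abundant enzyme of expanding tissues and wood fibres, had 226.8 FPKM in Col0 against 168.5 in cbe1. Its log2 ratio was −0.43 (95% interval −0.78 to −0.07; q = 0.169 in the authors' deposited table), and relative to the median gene it was −0.60, with an adjusted q of 0.0244 after recentring. XTH9, known from shoot apices and elongating stems, had 82.0 and 98.7 FPKM, a log2 ratio of 0.27 (−0.10 to 0.63). Its interval lies above those of XTH6, XTH7 and XTH8 without overlap, although the difference between genes was not tested. XTH5 had 2.14 and 2.70 FPKM, and XTH10 had 0.440 and 0.306 FPKM. XTH11 was lowest of the tested members, at 0.267 and 0.295 FPKM, with an interval from −2.19 to 2.48. XTH1, XTH2 and XTH3, the last known for joining cellulose chains, had at most 0.0914 FPKM in either genotype and were left untested by the authors.

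The sequence upstream of the 5 genes called lower is shown as a description, and joint regulation of these genes was not tested. Each line holds the 300 bases before the RefSeq gene start (TAIR10.1), 5′ to 3′ on the gene's strand, and none of these windows overlaps another annotated gene. The deposited table holds other gene bounds, so windows and motif distances rest on the RefSeq starts. XTH6, for example, starts at 26299032 in the deposited table and at 26298728 in RefSeq, so its window would hold other bases. Capitals mark any of 5 motifs searched on both strands: CACGTG, the G-box; CATGTG, an E-box; CGTGNG, which holds brassinosteroid response elements; TGTCTC, an auxin element; and TATAAA, which can overlap itself.
XTH7, chr4:17777446-17777745, minus strand: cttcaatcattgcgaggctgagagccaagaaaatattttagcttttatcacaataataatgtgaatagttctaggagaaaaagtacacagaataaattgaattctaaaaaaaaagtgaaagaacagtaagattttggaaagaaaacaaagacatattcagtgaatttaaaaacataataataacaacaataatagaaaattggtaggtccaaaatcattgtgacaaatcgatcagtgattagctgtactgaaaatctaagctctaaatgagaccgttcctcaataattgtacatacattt
XTH6, chr5:26298428-26298727, plus strand: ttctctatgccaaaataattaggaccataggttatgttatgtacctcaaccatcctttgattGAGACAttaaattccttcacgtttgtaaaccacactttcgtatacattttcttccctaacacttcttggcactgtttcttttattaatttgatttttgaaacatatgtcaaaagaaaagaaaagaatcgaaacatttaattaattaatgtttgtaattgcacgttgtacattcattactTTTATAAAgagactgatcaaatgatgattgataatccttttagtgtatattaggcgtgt
XTH8, chr1:3880392-3880691, minus strand: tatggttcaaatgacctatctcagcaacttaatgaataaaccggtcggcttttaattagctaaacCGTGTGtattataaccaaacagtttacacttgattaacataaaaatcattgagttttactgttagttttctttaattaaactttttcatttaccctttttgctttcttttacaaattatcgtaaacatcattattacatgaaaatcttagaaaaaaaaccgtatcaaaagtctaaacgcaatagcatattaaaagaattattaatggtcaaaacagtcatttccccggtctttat
XTH31, chr3:16448845-16449144, minus strand: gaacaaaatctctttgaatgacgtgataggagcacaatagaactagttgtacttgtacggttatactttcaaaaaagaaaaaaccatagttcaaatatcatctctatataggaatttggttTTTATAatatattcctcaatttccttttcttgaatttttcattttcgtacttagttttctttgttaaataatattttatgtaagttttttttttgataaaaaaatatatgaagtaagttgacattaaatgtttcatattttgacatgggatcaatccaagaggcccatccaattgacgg
XTH32, chr2:15474829-15475128, minus strand: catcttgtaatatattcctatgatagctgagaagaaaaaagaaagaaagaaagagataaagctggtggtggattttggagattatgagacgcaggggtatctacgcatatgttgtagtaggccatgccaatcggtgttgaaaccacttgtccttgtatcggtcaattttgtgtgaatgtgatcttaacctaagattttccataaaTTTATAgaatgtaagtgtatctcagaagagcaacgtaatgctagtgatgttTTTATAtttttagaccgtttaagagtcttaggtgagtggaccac
The 5 windows shared no motif of the set. TATAAA was in XTH6, XTH31 and XTH32 and in 18 of the 33 members, while 52.9% of 27443 protein-coding promoter windows of this length hold it. Of the 5, XTH8 alone held CGTGNG, 235 bases before the RefSeq gene start, and XTH6 alone held TGTCTC, 238 bases before it. Of the 33 members, 4 held CGTGNG and 3 held TGTCTC, against 14.2% and 13% of all windows. CATGTG was in 0 of the 5 and in 5 of the 33 members, against 13.1% of all windows. CACGTG was in 0 of the 33 members, against 7.09% of all windows. A match is a description of letters, and its absence says only that the letters are not in this window.

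All 6 tested members of group 3 had log2 ratios below 0, beside 30.8% of all tested genes with a finite ratio. Of the 6, 2 were called lower, beside 1.63% of all tested genes. XTH31 (AT3G44990, chromosome 3, 16446975 to 16448764), which is known to act as a xyloglucan hydrolase and to affect aluminium binding of the wall, had 83.2 FPKM in Col0 against 50.6 in cbe1. Its log2 ratio was −0.72 (95% interval −1.06 to −0.38; q = 0.00233 in the authors' deposited table). XTH32 (AT2G36870, chromosome 2, 15472645 to 15474681) had 22.4 and 13.5 FPKM, a log2 ratio of −0.73 (−1.18 to −0.27; q = 0.0390 in the authors' deposited table). The pair thus lay 1.65-fold and 1.66-fold lower, nearly the same ratio at different abundance.

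In the other branch of group 3, 0 of 4 tested genes were called, beside 1.63% of all tested genes called lower and 3.31% higher. XTH28, which is needed for growth of stamen filaments, had 39.2 FPKM in Col0 against 30.4 in cbe1, a log2 ratio of −0.37 (95% interval −0.72 to −0.02; q = 0.265 in the authors' deposited table). XTH27, an enzyme of vascular tracheary elements, had 56.8 and 50.1 FPKM, with an interval of −0.52 to 0.16. XTH30 had 11.2 and 9.69 FPKM, and XTH33, which is anchored at the plasma membrane, had 2.09 and 1.38 FPKM. XTH29 had 0.0762 and 0.0731 FPKM and was left untested.

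Group 2 had 15 tested members and 0 calls by the Cuffdiff test, beside 1.63% of all tested genes called lower and 3.31% higher. Of the 15, 11 had a log2 ratio above 0, beside 69.2% of all tested genes with a finite ratio. The other 4 lay below 0, while 8 of the 15 lay below the median gene. At an unadjusted p below 0.05 there were 2 lower members, XTH15 and XTH20, and 1 higher, XTH22, beside 4.2% and 12.5% of all tested genes. Summed over the group the level was 152 FPKM in Col0 against 155 in cbe1, beside 892 and 611 FPKM for group 1 and 215 and 156 FPKM for group 3. The median log2 ratio of the tested members was 0.13 in group 2, −0.48 in group 1 and −0.48 in group 3, a description of members that share ancestry and that carries no test. Less the shift of the median gene these medians were −0.05, −0.65 and −0.66, so group 2 lay near the centre of all genes.

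XTH15, a shade-inducible gene of petioles, was the group 2 member nearest to a lower call. It had 17.7 FPKM in Col0 against 11.5 in cbe1, a log2 ratio of −0.62 (95% interval −1.05 to −0.20; q = 0.0707 in the authors' deposited table), and after recentring its adjusted q was 0.00934. XTH16, its nearest relative with 80.6% identical coding bases, had 17.4 and 19.8 FPKM, a log2 ratio of 0.19 (−0.22 to 0.59). This pair had similar levels in Col0 and ratios of opposite sign, although their intervals overlap by a narrow margin.

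XTH22 (TCH4) had 8.96 FPKM in Col0 against 13.3 in cbe1, a log2 ratio of 0.58 (95% interval 0.11 to 1.04; q = 0.160 in the authors' deposited table). Its less abundant neighbours in the same tandem array on chromosome 5, within 23300321 to 23308680 (TAIR10.1), are XTH25, XTH13 and XTH12. XTH25 had 0.815 and 1.4 FPKM, XTH13 had 1.14 and 2.12 FPKM and XTH12 had 3.55 and 3.62 FPKM. Log2 ratios along the array ran from 0.03 for XTH12 to 0.89 for XTH13, all above 0 with none called, though XTH12 lay below the median gene. The intervals of XTH13 and XTH25, −0.13 to 1.92 and −0.26 to 1.82, were wide and included 0.

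The array of XTH24, XTH18 and XTH19 on chromosome 4 likewise had no ratio below 0, though XTH24 lay below the median gene. XTH24 (MERI5), named for its expression in meristems, had 40.1 FPKM in Col0 against 40.7 in cbe1, with a log2 ratio of 0.02 and an interval of −0.33 to 0.38. XTH18 had 9.00 and 10.8 FPKM, and XTH19 had 5.33 and 7.50 FPKM. In the pair XTH23 and XTH14, which lie 363 bases apart on chromosome 4, XTH23 had 2.44 and 2.67 FPKM and XTH14 had 25.9 and 23.5 FPKM. The 20 tested members outside such arrays and pairs had a median log2 ratio of −0.40. All 5 calls were among these 20, beside 1.63% of all tested genes called lower. The tested members inside arrays and pairs all belong to group 2, so this split in part repeats that by group.

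The 9 members known from roots (XTH12, XTH13, XTH14, XTH17 to XTH21 and XTH26) held 0 calls, beside 1.63% of all tested genes called lower and 3.31% higher. Their summed level was 64.6 FPKM in Col0 against 65.6 in cbe1. XTH17 had 12.2 FPKM in Col0 against 12.3 in cbe1, a log2 ratio of 0.01 with an interval of −0.43 to 0.46. XTH26, the root hair member, had 1.39 and 1.63 FPKM, and XTH21, which acts in primary root growth, had 2.33 and 1.88 FPKM. XTH20 had 3.75 and 2.25 FPKM, the lowest ratio of group 2 at −0.74 (95% interval −1.40 to −0.08; q = 0.224 in the authors' deposited table). Of 10 tested root markers 1 was called higher, the iron transporter gene IRT1 with 28.3 and 51.1 FPKM, and 0 lower, beside 3.31% and 1.63% of all tested genes. Of the 10, 9 had ratios above 0 and 3 lay below the median gene, and 69.2% of all tested genes with a finite ratio were above 0. Of 8 root hair markers 1 was called higher, LRX1 with 3.05 and 5.63 FPKM, and 0 lower, beside the same 3.31% and 1.63%. Of the 8, 7 had ratios above 0 and 1 lay below the median gene. After recentring on the median gene neither IRT1 nor LRX1 was called (q of 0.158 and 0.0674). The part of root tissue in the XTH values was not tested.

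Reads of closely similar members can be assigned to the wrong gene, and the most similar pairs lie in group 2, which holds no called gene. Of 528 pairs of members, 7 had at least 80% identical coding bases, all within group 2. Just 2 pairs shared an identical transcript stretch of at least 50 bases. XTH18 and XTH19 shared the longest, 68 coding bases:
XTH18 and XTH19: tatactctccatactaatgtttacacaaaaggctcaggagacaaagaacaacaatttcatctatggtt
The called genes shared at most 26 bases in a row with any other member, in XTH6 and XTH7. The values of XTH12 and XTH13 (47 shared bases, 89.4% identity) and of XTH17 to XTH20 may thus be less certain as to copy than those of the called genes. How reads were assigned between copies was not examined. No member shared its locus with another gene in the deposited table.

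**Figure D2:**
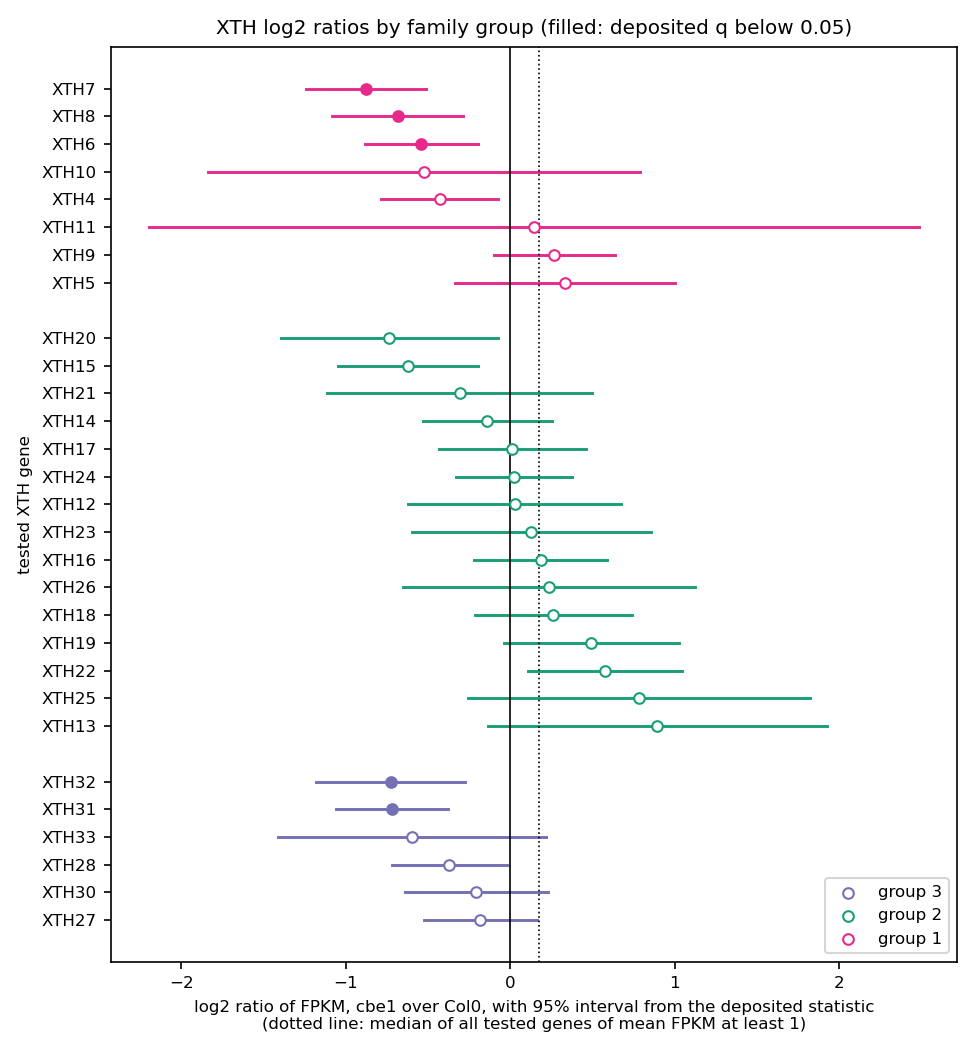
Log2 ratio of FPKM, cbe1 over Col0, of the 29 tested XTH genes by family group, with 95% intervals from the deposited statistic; filled points were called and the dotted line is the median tested gene at 0.17. All 6 point ratios of group 3 lie below 0, with the intervals of XTH27, XTH30 and XTH33 crossing it; group 1 has XTH4, XTH6, XTH7, XTH8 and XTH10 below 0 and XTH5, XTH9 and XTH11 above; and group 2 is spread around the dotted line.

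All 5 calls were among abundant members. Of the 16 members with a mean FPKM of at least 10, 11 had a ratio below 0 and 5 were called lower, beside 31.6% of all tested genes of that abundance with a ratio below 0 and 2.81% called lower. Of the 13 tested members below that level, 4 had a ratio below 0 and 0 were called. Among all tested genes below that level 30.3% had a ratio below 0, 1% were called lower and 2.2% higher. Error differs between these classes, since the standard error of the log2 ratio implied by the deposited statistic had a median of 0.19 for the abundant and 0.41 for the rare tested members.

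**Figure D3:**
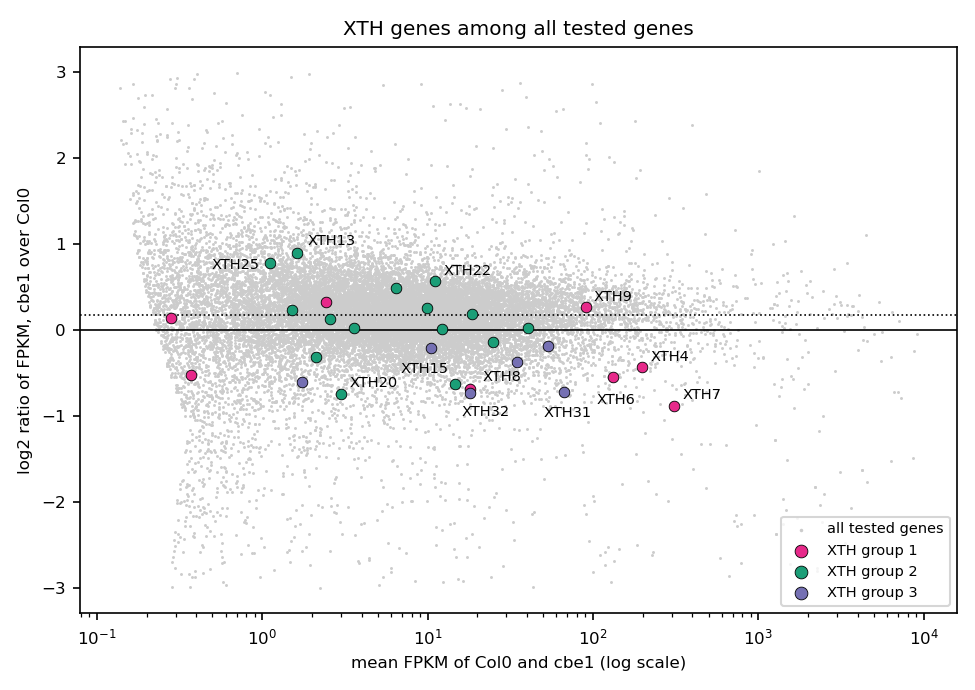
Log2 ratio of FPKM against mean FPKM (log axis) for all tested genes in grey, cropped to the plotted range, and for the 29 tested XTH genes in colour by group. XTH7, XTH31, XTH32, XTH8 and XTH6 lie below the dotted median line, and XTH13, XTH25 and XTH22 lie above the dotted median line.

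Other genes of xyloglucan metabolism, hormones, touch and shade were compared with the same calls, as a description with no test of any list. Divided by the nuclear protein-coding total, all tested genes of these lists lay above 0. Of 6 tested genes of enzymes that trim xyloglucan side chains, 1 was called lower and 0 higher, beside 1.63% and 3.31% of all tested genes, and all 6 had ratios below 0, beside 30.8%. XYL1, the main α-xylosidase acting on xyloglucan, had 130.0 FPKM in Col0 against 83.3 in cbe1, a log2 ratio of −0.64 (95% interval −1.01 to −0.27; q = 0.0193 in the authors' deposited table). BGLC1, a β-glucosidase, had 34.1 and 25.7 FPKM and was not called. AXY8, a fucosidase gene picked here with its value already known, had 27.2 and 19.0 FPKM, a log2 ratio of −0.52, with q = 0.0553 in the authors' deposited table. After recentring on the median gene, XYL1, AXY8 and BGLC1 were called lower, beside 2.99% of all tested genes. BGLC1 lay just under the threshold there, with an adjusted q of 0.0497.

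Of 15 genes that build xyloglucan, 0 were called in either direction by the Cuffdiff test, beside 1.63% of all tested genes called lower and 3.31% higher. At an unadjusted p below 0.05 there were 3 lower and 0 higher, beside 4.2% and 12.5% of all tested genes. Of the 15, 10 had ratios below 0, beside 30.8% of all tested genes with a finite ratio, and 14 lay below the median gene. XXT2, a xylosyltransferase that places the first side-chain sugar, had 49.4 FPKM in Col0 against 40.4 in cbe1, a log2 ratio of −0.29 with an interval of −0.63 to 0.05. XXT5 had 21.7 and 18.3 FPKM. The median log2 ratio of this list was −0.24 and that of the trimming list −0.35, while that of all tested genes with a finite ratio was 0.18.

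XTH genes are known targets of brassinosteroids, touch and shade. Of 15 tested brassinosteroid genes, 0 were called, beside 1.63% of all tested genes called lower and 3.31% higher. In the lower direction 1 had an unadjusted p below 0.05, beside 4.2% of all tested genes. It was the receptor gene BRI1, with 27.7 FPKM in Col0 against 21.7 in cbe1 (named after its value was seen). Of the 15, 7 had ratios below 0 and 8 above, and 11 lay below the median gene. DWF1 and CPD, enzymes of brassinosteroid synthesis, had 107.5 and 131.4 FPKM and 70.4 and 77.1 FPKM. Of 9 tested touch-inducible genes, 0 were called and 2 had an unadjusted p below 0.05 in the higher direction, which 12.5% of all tested genes met. All 9 had ratios above 0, beside 69.2% of all tested genes with a finite ratio, with a median log2 ratio of 0.48, while 1 of them, MYB44, lay below the median gene. Of these CAM2, a calmodulin gene, had 23.5 and 30.9 FPKM, and MYB44 had 19.0 and 19.5 FPKM. CAM2 and MYB44 share their loci with other genes.

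Of 10 shade and elongation genes, 3 were called lower and 0 higher, beside 1.63% and 3.31% of all tested genes. HB-2, a homeodomain factor gene induced by shade, had 9.72 FPKM in Col0 against 5.28 in cbe1, a log2 ratio of −0.88 (95% interval −1.37 to −0.39; q = 0.0138 in the authors' deposited table). PRE1, a helix-loop-helix factor that promotes elongation, had 20.02 and 11.4 FPKM, a log2 ratio of −0.82 (−1.30 to −0.34; q = 0.0245 in the authors' deposited table). HFR1, a bHLH factor that restrains the shade response, had 25.6 and 15.8 FPKM, a log2 ratio of −0.70 (−1.08 to −0.32; q = 0.0122 in the authors' deposited table). The called genes thus have opposed known roles in elongation, and the list median was −0.63.

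Markers of the seedling's tissues were compared to describe its make-up. Of 8 tested shoot photosynthesis markers 0 were called, beside 1.63% of all tested genes called lower and 3.31% higher. In the higher direction 1 had an unadjusted p below 0.05, which 12.5% of all tested genes met. RBCS3B had 5964 FPKM in Col0 against 6890 in cbe1, and LHCA1 had 5615 and 5563 FPKM. The summed level of all 9 was 25359 and 28267 FPKM. Root markers summed to 2534 and 1724 FPKM, a sum led by PYK10 at 2440 and 1583 FPKM (not called), and root hair markers to 39.0 and 49.97 FPKM. Of 5 seed markers 4 were called higher, CRA1, OLEO2, CRC and OLEO1, and SESA1 lower, beside 3.31% and 1.63% of all tested genes, with sums of 39.4 and 97.0 FPKM, and CRC was not called after recentring (q of 0.0528). OLEO1, PYK10 and the root marker CASP1 share their loci with other genes. No marker was listed at 0 in either genotype, and the part of tissue make-up in the XTH values was not tested.

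**Figure D4:**
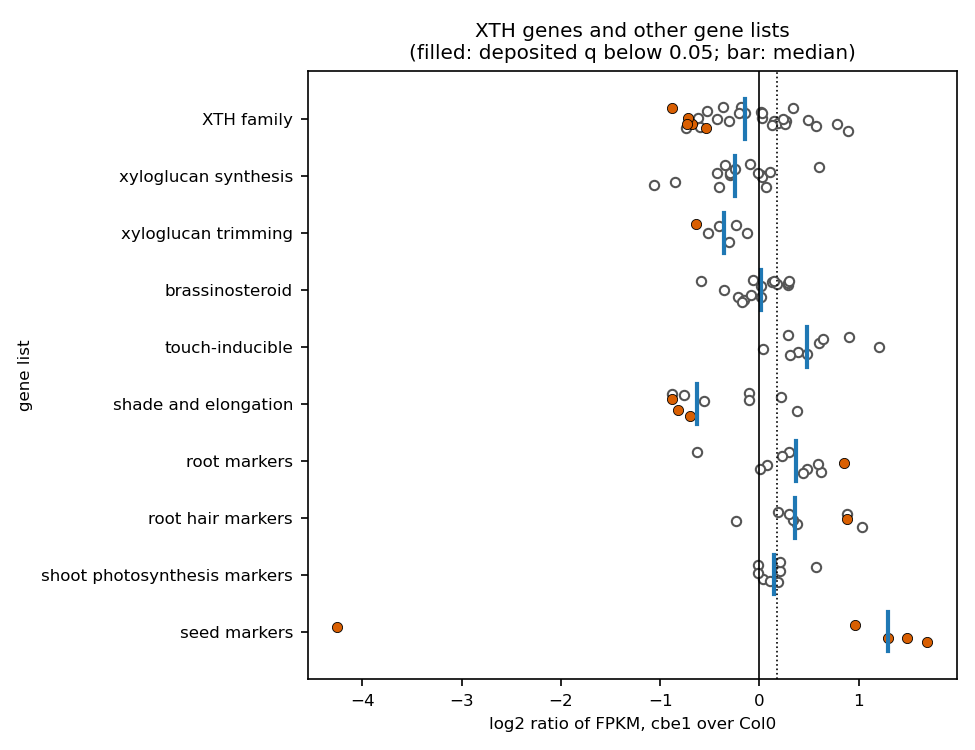
Log2 ratio of FPKM, cbe1 over Col0, for each tested gene of the XTH family and of the 9 other lists, with called genes filled, list medians as blue bars and the median tested gene as a dotted line. Lower calls lie in the XTH, xyloglucan trimming, shade and seed marker lists, the last with SESA1 alone beside 4 higher calls, and the touch-inducible genes lie above 0 with none called and MYB44 below the dotted line.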

How the data were processed

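TopHat, Cuffdiff and the TAIR10 build are named, without versions, per the submitters' processing notes. Library scaling and strand use were not given in the sources available. For each gene the authors' deposited table lists 1 FPKM per genotype over its replicates, a log2 ratio, a test statistic (a score with the opposite sign), a p-value and a q-value. Ratios were computed again from FPKM with no pseudocount, since infinite deposited log2 values are written as numbers. A Benjamini-Hochberg adjustment over the 22303 tested genes of 33557 gave back the deposited q within 2.46e-06, and the statistic's two-sided normal p gave back the deposited p within 2.74e-06. Standard errors are ratio over statistic, and 95% intervals use 1.96 of them. For 371 tested genes without a finite statistic the deposited p was kept on recentring. Depth is unknown, so precision rests on the authors' error model.

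Symbols, transcripts and sequences are from RefSeq TAIR10.1, in which all 33 members overlapped their TAIR10 coordinates. Of 27973 nuclear genes compared, just 29.6% had the same start in both and 29.2% the same end. Starts in the table count from 0 and were raised by 1. Coding sequences were aligned globally with biopython 1.88. All members are reported, with every call and up to 2 abundant genes per list. Members and lists were chosen with earlier results of these data known. Python 3.11.15, numpy 2.4.6, pandas 2.3.3 and scipy 1.17.1 were used.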

Additional observations from a re-analysis of the deposited data

How the results depend on the processing

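The 5 lower calls and the absence of higher ones were kept with a mean FPKM of at least 1, with nuclear genes alone on their locus, and with a total without AT2G01021 (chosen after seeing the data). With that total XTH6 was kept by a narrow margin, at an adjusted q of 0.0495. At a q threshold of 0.01 there were 2 lower calls, XTH7 and XTH31, and with an absolute log2 ratio of at least 1 there were 0. The statistic recentred on the nuclear protein-coding total, whose shift of −1.76 comes from AT2G01021, gave 0 lower and 27 higher calls. Log2 ratios reversed there to 1.33 (XTH4), 1.22 (XTH6), 0.88 (XTH7), 1.07 (XTH8), 1.23 (XTH10), 1.62 (XTH14), 1.14 (XTH15), 1.02 (XTH20), 1.45 (XTH21), 1.57 (XTH27), 1.39 (XTH28), 1.55 (XTH30), 1.04 (XTH31), 1.03 (XTH32) and 1.16 (XTH33). Recentred on the median gene, uncalled ratios reversed to −0.031 (XTH11), −0.15 (XTH12), −0.16 (XTH17), −0.048 (XTH23) and −0.15 (XTH24), and lower calls came to 1 in the xyloglucan synthesis list (XXT3, picked with its value known) and 3 in the trimming list. At a q threshold of 0.01 the lower calls came to 0 in the trimming list and 0 in the shade list. The family median kept its sign with the pseudocounts and filters tried. No paired analysis was possible because the deposited table holds group values without replicates, and for the same reason no replicate could be left out.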
